A study of Mus musculus with 31 samples.

Results

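The RNA of polysomes was compared with total RNA in the neocortex of newborn mice whose genotype is given as HuR cKO, a conditional knockout. The comparison used 6 of the 31 libraries of the series, 3 of polysome RNA and 3 of total RNA, and was made across all genes. HuR, encoded by Elavl1, is an RNA-binding protein that binds U-rich and AU-rich stretches in mRNAs and is known to affect their stability and translation. An mRNA that is read by many ribosomes at once sediments fast in a sucrose gradient and is recovered with the polysomes, whereas a repressed mRNA sediments with ribosomal subunits or single ribosomes. The level of an mRNA in polysome RNA relative to total RNA is therefore used as a measure of how much of it is engaged by several ribosomes.

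All animals came from the day of birth (P0) unless embryonic day 13 (E13) is named. The dissected neocortex was lysed in the presence of 0.1 mg/ml cycloheximide, which holds ribosomes on mRNA, and part of the cleared lysate gave total RNA. The rest was spun through a gradient that was collected as 14 fractions, of which fractions 9 to 12 were pooled at equal volumes as polysome RNA. Fractions 4 to 7 were pooled in the same way as the region of subunits and single ribosomes, called monosome RNA here. The labels name the genotype as HuR cKO and name neither the Cre driver nor the removed part of Elavl1, and they do not say whether libraries came from separate animals. The p-values therefore measure the spread between these libraries, which may be in part technical. For comparison, 3 polysome and 3 total libraries of wild-type (WT) neocortex at P0, 3 polysome and 2 total libraries of HuR cKO neocortex at E13, and 2 monosome libraries of HuR cKO neocortex at P0 were used. The columns of the cKO table are numbered from 0 and are called c0, c1 and c2.

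The values are FPKM, fragments per kilobase of transcript scaled to the size of the library. Each value is thus relative to its library and not an amount per cell or per gradient. Differences are given as polysome minus total on the scale of log2(FPKM + 1), with the standard error (SE) of limma's moderated test. A gene was called when its Benjamini-Hochberg adjusted p over all 12302 genes tested was under 0.05, and higher or lower below refers to polysome RNA unless stated. The 6 libraries summed to 431300 to 618655 FPKM and listed 15931 to 16625 genes above 0. The monosome libraries summed to 1130655 and 1003432 FPKM, so an FPKM value is not a fixed fraction of its library. The cortical transcription factor Tbr1 was present in all 6 libraries (28.4 to 44.0 FPKM), whereas Hoxa5 of the hindbrain was listed at 0 and En1 of the midbrain was at 0.078 FPKM or less. Deposited values give no fragment counts, so the depth is unknown.

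One library stood apart from the rest. Across genes, in log2(FPKM + 1), total c0 correlated (Pearson's r) at 0.928 to 0.947 with the other total libraries, which correlated at 0.978 with each other, and the polysome libraries correlated at 0.985 to 0.991 among themselves. Total c0 also had less mRNA of ribosomal proteins and more of long genes than the other total libraries, as described below. The counts of called genes and the gene lists are therefore given with and without total c0, and single genes where their call or size changes. Male-specific mRNA went against the numbering in another library: Eif2s3y was at 0.0481 FPKM in polysome c0 and at 28.9 FPKM in total c0.

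Elavl1 mRNA, the targeted gene (GRCm38 chr8:4285382-4325413, minus strand, 6 exons), was detected in every library. It measured 16, 19 and 22.6 FPKM in polysome c0, c1 and c2 and 17.8, 25.1 and 28.5 FPKM in total c0, c1 and c2. The groups overlapped, and the difference of -0.28 ± 0.21 (SE) did not pass the test (adjusted p = 0.375). In WT, Elavl1 was at 21.5, 26.2 and 21.8 FPKM in polysome and 13.5, 15.2 and 15.2 FPKM in total RNA, so that all WT polysome libraries lay above all WT total libraries. Monosome RNA held 29.9 and 24.5 FPKM in cKO and 10.3, 12.3 and 8.28 FPKM in WT. Elavl1 mRNA was thus not lower under the cKO label: every cKO library of total and monosome RNA lay above every WT library of the same kind, and the polysome libraries overlapped. The tables of the 2 genotypes were deposited separately, so these levels are set side by side without a test. At the level of the whole gene these values do not show the loss that a knockout label would name, and they cannot tell whether the label holds. Below, cKO means the libraries labelled HuR cKO. The WT difference was 0.62 ± 0.30 (adjusted p = 0.174), and the cKO difference minus the WT difference was -0.91 ± 0.37 (adjusted p = 1.0). Gene-level FPKM cannot resolve single exons, and the deletion was not examined here.

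Polysome RNA of the cKO neocortex held less of the mRNAs for ribosomal proteins, ferritin and several selenoproteins and less of many non-coding RNAs, and more of the mRNAs for the proteasome. In all, 633 genes (5.15% of those tested) were higher and 796 (6.47%) lower in polysome RNA, or 1429 genes (11.6%). The median difference over all genes was -0.01, with quartiles of -0.38 and 0.36. Without total c0, 178 genes (1.46% of 12233) were higher and 776 (6.34%) lower, or 954 (7.8%). Of the 633 higher genes, 168 were still called and 633 of 633 had the same sign, and of the 796 lower genes, 591 were still called and 795 of 795 tested had the same sign. The higher calls thus depended more on that library. The kept signs are no separate support, since both fits share the other libraries. Leaving out polysome c0, c1 or c2 or total c2 also reduced the calls, to 125, 41, 57 and 215 higher and 407, 260, 187 and 401 lower genes. With the column number as a replicate block, 1820 genes (15.2% of 12010) were higher and 1688 (14.1%) lower, or 3508 (29.2%). The male-specific mRNA of polysome c0 and total c0 goes against that numbering, so counts with the block are given only as an alternative setting.

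**Figure D1:**
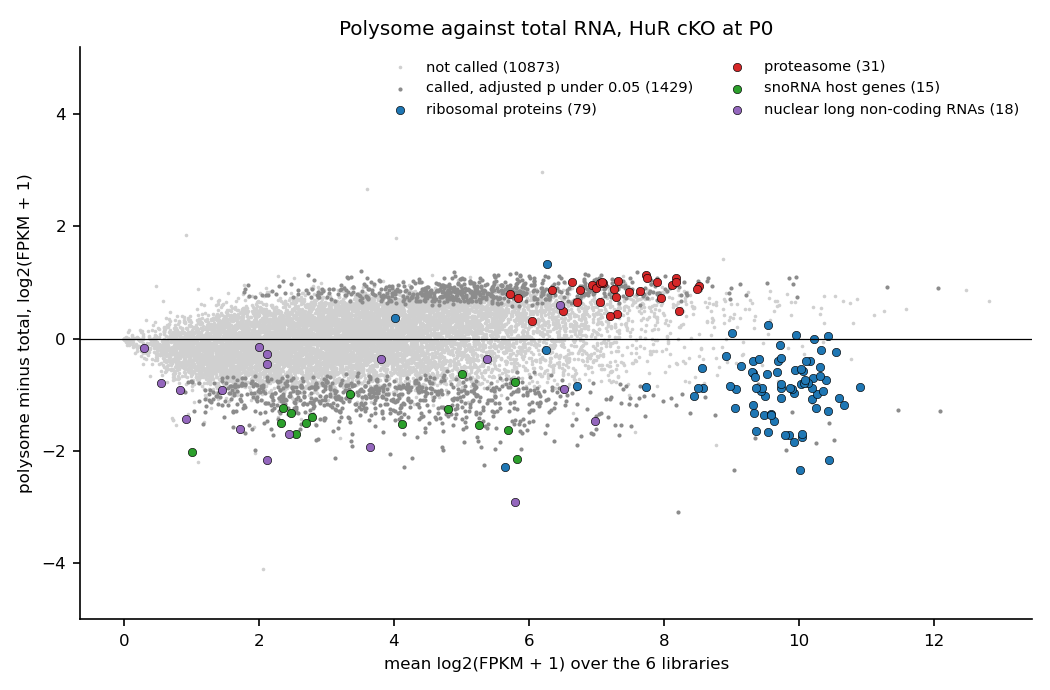
Each point is 1 of 12302 genes, with its mean log2(FPKM + 1) over the 6 libraries on the x axis and polysome minus total RNA on the y axis. Called genes are dark grey, and gene lists are coloured: most ribosomal protein genes lie below 0 at high levels, and the 31 proteasome genes lie above 0.

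The largest decreases belonged to mRNAs of quite different kinds. Lars2, the mitochondrial leucyl-tRNA synthetase, had the largest, at 160.0, 40.4 and 157 FPKM in polysome c0, c1 and c2 against 507, 1680.0 and 763 FPKM in total c0, c1 and c2 (-3.09 ± 0.95, adjusted p = 0.0431). The call was lost without any 1 of the 6 libraries (adjusted p of 0.0626 to 0.177). A lack of overlap between the groups was a condition for the 12 genes named in each direction and is no added support for them. Over all genes, 18.2% were lower and 23.8% higher in polysome RNA without overlap. Rian, an imprinted non-coding RNA that hosts small RNAs (GRCm38 chr12:109603940-109661716, plus strand), was at 26.7, 17.4 and 15.1 FPKM in polysome and 122, 159 and 178 FPKM in total RNA (-2.92 ± 0.26, adjusted p = 1.33e-05). Its groups were far apart, and it had the smallest adjusted p of all genes. Bend6, a BEN domain protein, measured 25.7, 17.1 and 12.3 FPKM in polysome and 68.2, 101 and 97.3 FPKM in total RNA (-2.25 ± 0.38, adjusted p = 0.00281). Casc4, a Golgi protein, followed at -2.13 ± 0.36, Mzt1, a component of the microtubule nucleating complex, at -1.99 ± 0.41, and Ap3s1, a subunit of the AP-3 adaptor that sorts vesicle cargo, at -1.97 ± 0.36. These 4 genes were called without each library in turn. In total, 10 of the 12 lower genes named by the rule and 4 of the 12 higher ones were, the exceptions on the lower side being Lars2 and Meg3.

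The largest increases were smaller in size, none of the 12 being above 1.33. Rpl26, a ribosomal protein gene that went against its family, led with 108, 155 and 106 FPKM in polysome against 37.5, 44.4 and 64.7 FPKM in total RNA (1.33 ± 0.36, adjusted p = 0.0248, and 1.16 with an adjusted p of 0.0859 without total c0). Every polysome library was above every total library, as the choice of these genes required. Cyb5r3, which encodes cytochrome b5 reductase, measured 183, 184 and 156 FPKM in polysome and 72.1, 89.7 and 74.8 FPKM in total RNA (1.14 ± 0.19, adjusted p = 0.00264). Frg1, a nuclear protein linked to splicing, measured 69.8, 91.7 and 73.8 FPKM against 30.8, 35.2 and 38.5 FPKM (1.14 ± 0.19, adjusted p = 0.00264). Cyb5r3 and Frg1, together with Psmb2 of the proteasome and Aamp, a migration-associated protein (1.16 ± 0.25, adjusted p = 0.00907), were the 4 that remained called without each library in turn. Etfb, the beta subunit of the electron transfer flavoprotein (1.17 ± 0.25, adjusted p = 0.00907), lost its call without polysome c1 (adjusted p = 0.0517). Gtf2h4, a subunit of the transcription factor TFIIH (1.2 ± 0.28), and Pycrl, a proline synthesis enzyme (1.18 ± 0.27), lost theirs without polysome c1 or c2. Snrpb, a core spliceosome protein (1.19 ± 0.32), Ruvbl1, an ATPase of chromatin remodelling complexes (1.14 ± 0.33), and Idh2, the mitochondrial isocitrate dehydrogenase (1.13 ± 0.33), were not called without total c0 (adjusted p = 0.0639, 0.118 and 0.143). Trp53, the other member of the 12, is described with the HuR targets below. Each of the 12 was above 0 in the WT and in the E13 comparison.

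Ribosomal protein mRNAs carry at their 5′ end a run of pyrimidines that begins with C (the TOP motif), through which their translation is controlled together with that of elongation factors, Pabpc1 and Tpt1. Starts of transcription were taken from RefSeq (GRCm38.p6), and a window from 10 bases before to 20 bases from the start was searched on the sense strand for CTTT as a mark of such a run. CTTT was in the window of 19 of 58 ribosomal protein genes (32.8%), 7 of 12 small nucleolar RNA (snoRNA) host genes (58.3%) and 2 of 25 proteasome genes (8.0%) with an entry. Of all 27025 genes in the RefSeq table, 13.5% held it and 13.0% held its reverse complement AAAG. The windows below, 5′ to 3′, show members of the lower group with the run in capitals, and then a ribosomal and a proteasome gene without CTTT in the window. Rps12 lies at chr10:23787190-23787219 (minus strand), Rpl12 at chr2:32961702-32961731 (plus), Rpl35a at chr16:33056472-33056501 (plus), Gas5 at chr1:161035156-161035185 (plus), Snhg8 at chr3:123508317-123508346 (minus), Rpl41 at chr10:128549149-128549178 (minus) and Psmb5 at chr14:54617976-54618005 (minus).
Rps12: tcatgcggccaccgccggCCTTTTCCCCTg
Rpl12: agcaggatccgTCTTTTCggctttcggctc
Rpl35a: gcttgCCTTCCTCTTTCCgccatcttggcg
Gas5: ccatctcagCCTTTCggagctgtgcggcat
Snhg8: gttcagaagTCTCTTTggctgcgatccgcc
Rpl41: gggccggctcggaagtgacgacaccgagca
Psmb5: tgcccttgctaaacatggcgctggctagcg
Ribosomal protein genes with CTTT in the window had a median difference of -0.89 and those without it -0.84 (-1.29 and -1.19 without total c0). A window without these letters does not show that an mRNA lacks the motif. Rpl35a and Gas5 have more than 1 start in RefSeq, of which the one with the run is shown.

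Ribosomal protein mRNAs were lower in polysome RNA as a family. In the large subunit 12 of 47 were lower and 1 higher, and in the small subunit 8 of 32 were lower and 0 higher, with medians of -0.86 in both, beside 6.47% of all genes called lower and a median of -0.01. Below 0 were 41 of the 47 and 32 of the 32. Without total c0 the lower calls numbered 30 of 47 and 27 of 32, with medians of -1.23 and -1.22. Leaving out polysome c2 gave the smallest counts, 2 and 1, and the replicate block gave 24 and 15, beside 14.1% of all genes. Ribosomal protein genes have many near-identical pseudogenes, between which the authors' counting could split reads, so single values of this family are uncertain.

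Rps12 of the small subunit (GRCm38 chr10:23785183-23787275, minus strand) was at 702, 396 and 350.0 FPKM in polysome and 1270.0, 3950.0 and 2580.0 FPKM in total RNA (-2.35 ± 0.40, adjusted p = 0.00285). Rpl41, the shortest protein of the large subunit (GRCm38 chr10:128548114-128549305, minus strand), was at 865, 677 and 491 FPKM against 1740.0, 5020.0 and 2980.0 FPKM (-2.17 ± 0.38, adjusted p = 0.00334). In both, no value of the groups overlapped, as their choice required, and total c0 was the lowest total library by a wide margin. Rpl39 was at -1.75 ± 0.34, Rplp1 and Rplp0 of the ribosomal stalk at -1.72 ± 0.38 and -1.46 ± 0.34, and Rpl12 at -1.65 ± 0.37. On the small subunit, Rps29 (-1.84 ± 0.38), Rps20 (-1.73 ± 0.37), Rps28 (-1.69 ± 0.34) and Rps21 (-1.66 ± 0.35) were also lower. Without total c0 all of these moved further from 0, for example to -2.80 for Rps12 and -2.55 for Rpl41. Summed over the family, ribosomal protein mRNAs took 11.0%, 10.4% and 9.27% of the FPKM in polysome c0, c1 and c2 and 12.9%, 23.9% and 19.7% in total c0, c1 and c2. The means were 10.2% ± 0.878 and 18.8% ± 5.55 (SD, n = 3 each), and the groups did not overlap (p = 0.1 in a two-sided exact permutation test, the smallest value 3 against 3 can give).

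The 2 monosome libraries, compared with the same total libraries, had a larger share of these mRNAs. Ribosomal protein mRNAs took 48.5% and 46.0% of their summed FPKM. Rps12 reached 17100.0 and 14500.0 FPKM and Rpl41 17500.0 and 13800.0 FPKM there. Against total RNA, 46 of 47 large-subunit and 31 of 32 small-subunit genes were higher in monosome RNA (13.0% of all genes were), with medians of 2.38 and 2.42. Rpl26 was the reverse, with 16.6 and 15.9 FPKM in monosome RNA.

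A list of elongation factors and other mRNAs grouped with the TOP mRNAs was less uniform. Not every member was shown to carry the motif, and CTTT was in the window of 4 of 14 with an entry (28.6%). Of 20 tested, 3 were lower and 0 higher with a median of -0.32, beside 6.47% of all genes lower. Without total c0 8 were lower with a median of -0.52, beside 6.34% of all genes. Pabpc1, the poly(A) binding protein, was at 76.0, 53.2 and 37.6 FPKM in polysome and 160.0, 228 and 226 FPKM in total RNA (-1.90 ± 0.36, adjusted p = 0.00574). Tpt1, a small protein known as TCTP, was at 1020.0, 732 and 650.0 FPKM against 1430.0, 4430.0 and 3320.0 FPKM (-1.81 ± 0.39, adjusted p = 0.00907). Eef1a1, which delivers tRNAs to the ribosome, was at 3500.0, 2460.0 and 2530.0 FPKM against 4490.0, 8550.0 and 8240.0 FPKM (-1.29 ± 0.28, adjusted p = 0.00992). In these 3 genes every polysome library lay below every total library. The translocase Eef2 was at -0.75 ± 0.26 (adjusted p = 0.0700) and passed the test without total c0 (-0.90, adjusted p = 0.0422), and Eef1d was at 0.73 ± 0.24 (adjusted p = 0.0558). Eef1a1 was listed at 0 in both monosome libraries, where Pabpc1 measured 1080.0 and 1020.0 FPKM, so its monosome value may be a failed estimate.

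**Figure D2:**
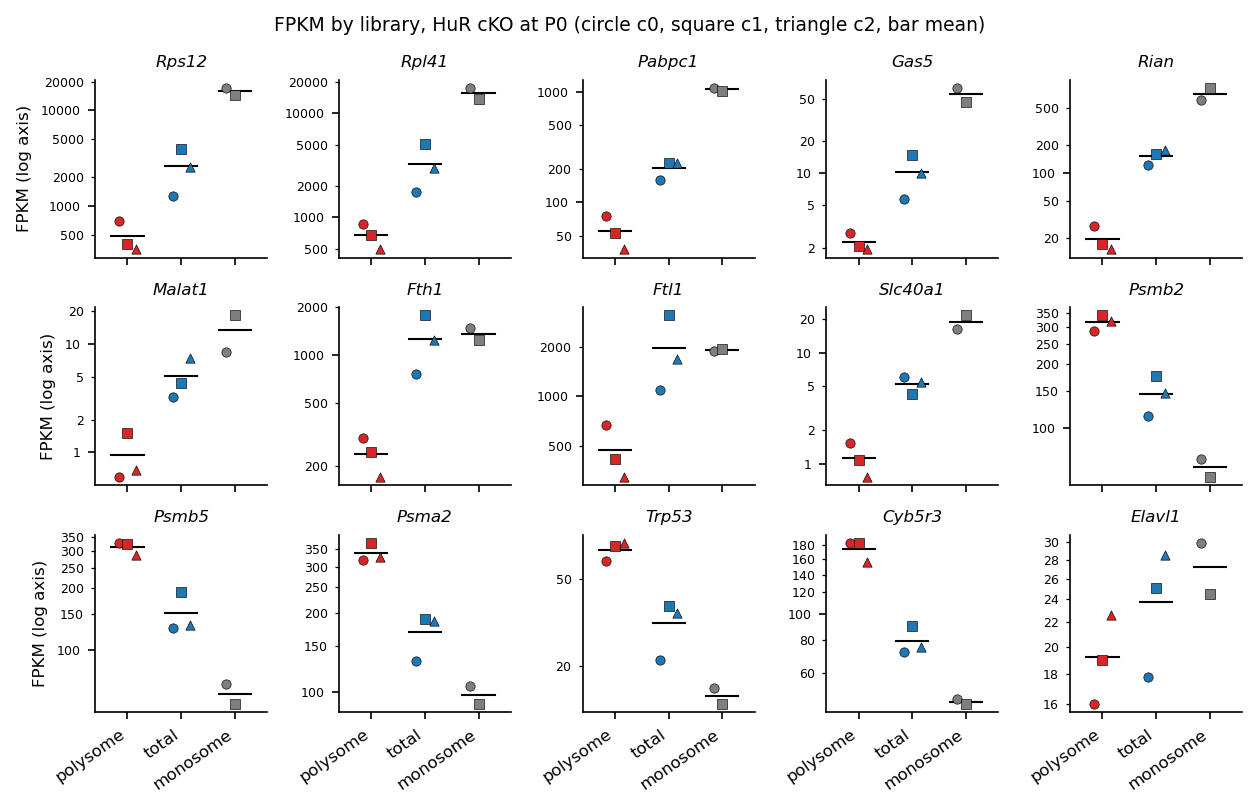
FPKM (log axis, separate for each gene) of 15 genes in the polysome (red), total (blue) and monosome (grey) libraries of the cKO neocortex at P0, with the mean as a bar. Ribosomal protein, non-coding and ferritin RNAs are lowest in the polysome libraries, Psmb2, Psmb5, Psma2, Trp53 and Cyb5r3 are highest there, and Elavl1 overlaps between polysome and total RNA.

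Host genes of snoRNAs are spliced into exons that code for little or no protein, and many begin with a TOP motif, as Gas5 and Snhg8 do above. Of 15 tested, 10 were lower and 0 higher, beside 6.47% of all genes called lower. The median was -1.50, and 15 of 15 were below 0. Without total c0 again 10 were lower, with a median of -1.68, and leaving out polysome c1 or c2 gave 5 and 4. Snhg6 was at 37.8, 22.6 and 20.1 FPKM in polysome and 73.2, 186 and 120.0 FPKM in total RNA (-2.15 ± 0.37, adjusted p = 0.00285). Gas5 was at 2.74, 2.11 and 1.94 FPKM against 5.75, 14.9 and 10.0 FPKM (-1.70 ± 0.34, adjusted p = 0.00691). Neither gene had an overlap between the groups, and both were higher again in monosome RNA, Gas5 at 62.6 and 46.7 FPKM. Snhg1 (-1.54 ± 0.29), Snhg8 (-1.40 ± 0.28) and 1500012F01Rik, also named Zfas1 (-1.63 ± 0.35), were lower as well. The replicate block called 15 of 15 lower, beside 14.1% of all genes.

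Among 18 other long non-coding RNAs, Rian included, 8 were lower and 0 higher, with a median of -0.90 (7 lower and -0.78 without total c0, and 4 to 10 lower without each library in turn). Over all genes 6.47% were lower, and 6.34% without total c0. Malat1, which stays in nuclear speckles, was at 0.596, 1.52 and 0.695 FPKM in polysome and 3.26, 4.40 and 7.43 FPKM in total RNA (-1.61 ± 0.31, adjusted p = 0.00619). Neat1, the scaffold of nuclear paraspeckles, was at 0.128, 0.226 and 0.121 FPKM against 2.56, 2.18 and 1.65 FPKM (-1.42 ± 0.28, adjusted p = 0.00658). The polysome values of Neat1 lie under the added 1 FPKM, so its difference on the log scale understates the ratio. Norad, listed as 2900097C17Rik and known from the cytoplasm, was at 81.8, 70.4 and 73.3 FPKM in polysome and 159, 219 and 261 FPKM in total RNA (-1.47 ± 0.22, adjusted p = 0.00220). H19, an imprinted RNA also found in the cytoplasm, was at -1.93 ± 0.41 (adjusted p = 0.00923). The list thus held nuclear and cytoplasmic RNAs among its lower members. Meg3, at -2.17 ± 0.52 with all libraries, owed much of its value to total c0 (31.9 FPKM, beside 3.60 and 4.27 FPKM in total c1 and c2) and was at -1.26 without it (adjusted p = 0.0280).

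Ferritin mRNAs have in their 5′ leader a stem-loop, the iron response element, to which the iron regulatory proteins bind and block initiation. Its loop reads CAGTGN, and the 30-base sites below, from GENCODE M21 transcripts (GRCm38, 5′ to 3′, written as DNA), have that loop in capitals. Fth1, the ferritin heavy chain, has it at chr19:9982732-9982761 (plus strand), Ftl1, the light chain, at chr7:45459778-45459807 (minus), and Slc40a1, the iron exporter ferroportin, at chr1:45925464-45925493 (minus).
Fth1: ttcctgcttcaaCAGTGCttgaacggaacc
Ftl1: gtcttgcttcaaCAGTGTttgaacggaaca
Slc40a1: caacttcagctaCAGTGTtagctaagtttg
The letters alone are common: CAGTGN was in the 5′ UTR of 2694 of 11483 genes tested (23.5%), whose median was 0.01, as it was for the genes without it.

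Fth1 was at 300.0, 247 and 172 FPKM in polysome and 764, 1780.0 and 1240.0 FPKM in total RNA (-2.35 ± 0.32, adjusted p = 0.00183). Ftl1 was at 669, 415 and 324 FPKM against 1090.0, 3090.0 and 1690.0 FPKM (-1.99 ± 0.36, adjusted p = 0.00411). Slc40a1 was at 1.55, 1.08 and 0.762 FPKM against 6.00, 4.21 and 5.4 FPKM (-1.55 ± 0.28, adjusted p = 0.00441). No group overlapped in any of the 3, and all were called without each library in turn. The transferrin receptor Tfrc, whose iron response elements lie in the 3′ UTR, was at -0.84 ± 0.30 (adjusted p = 0.0766). In monosome RNA, Fth1 (1480.0 and 1250.0 FPKM) and Ftl1 (1890.0 and 1940.0 FPKM) lay within the range of the total libraries, with differences from total RNA of 0.19 and 0.10. Ribosomal protein mRNAs, by contrast, had medians of 2.38 and 2.42 there. Ferritin genes have processed pseudogenes, to which some reads could be assigned. Of the 16 polyamine and iron genes tested, 4 were lower and 0 higher with a median of -0.16 (3 and 0 with -0.30 without total c0, and 6 and 0 with the replicate block). Over all genes 6.47% were lower (6.34% without total c0 and 14.1% with the block). The fourth was Amd2 (adjusted p = 0.0406, and 0.0656 without total c0), which has a near-identical copy in Amd1 and is uncertain.

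Selenoprotein mRNAs are translated by reading a UGA stop codon as selenocysteine. Of 18, 4 were lower and 1 higher, with a median of -0.36 (4 and 0 with a median of -0.42 without total c0, and 6 and 1 with the replicate block). Over all genes 6.47% were lower and 5.15% higher (14.1% and 15.2% with the block), so the 1 higher gene does not set the list apart. Sepw1 was at 466, 351 and 275 FPKM in polysome and 847, 1830.0 and 1140.0 FPKM in total RNA (-1.76 ± 0.31, adjusted p = 0.00314). Sepp1, the selenium carrier selenoprotein P, was at 21.9, 18.3 and 16.8 FPKM against 72.7, 49.0 and 46.3 FPKM (-1.49 ± 0.22, adjusted p = 0.00202). Every polysome value of both lay below every total value, and both were called without each library in turn. Gpx4, which reduces lipid peroxides, was at -1.35 ± 0.30 and selenoprotein T, listed as 2810407C02Rik, at -1.11 ± 0.23, both losing the call without polysome c2 (adjusted p = 0.0683 and 0.0585). The thioredoxin reductase Txnrd1 was higher (0.85 ± 0.21, adjusted p = 0.0196, and 0.67 with an adjusted p of 0.0621 without total c0).

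Most proteasome mRNAs were higher in polysome RNA when all libraries were used. The proteasome degrades ubiquitin-tagged proteins in a core of alpha and beta rings, fed by a cap of ATPases and further subunits. Of 31 genes tested, 23 were higher in polysome RNA and 0 lower, against 5.15% of all genes called higher, the median was 0.88, and 31 of 31 were above 0. Without total c0, 13 of 31 were higher (1.46% of all genes), with a median of 0.80. Leaving out another library left 12 without polysome c0, 2 without c1, 6 without c2, 20 without total c1 and 13 without total c2. By part, 5 of 7 alpha, 6 of 7 beta, 5 of 6 ATPase and 7 of 11 other cap genes were higher, with medians of 0.85, 1.01, 0.89 and 0.80. Without total c0 the counts were 4, 4, 2 and 3, with medians of 0.68, 0.81, 0.85 and 0.79.

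Psmb2, a beta-ring subunit (GRCm38 chr4:126677630-126709714, plus strand), was at 287, 340.0 and 321 FPKM in polysome and 114, 176 and 147 FPKM in total RNA (1.13 ± 0.24, adjusted p = 0.00876). Psmb5, a catalytic beta subunit (GRCm38 chr14:54614119-54618022, minus strand), was at 330.0, 325 and 289 FPKM against 128, 191 and 132 FPKM (1.08 ± 0.23, adjusted p = 0.00907). Psma2 of the alpha ring was at 317, 370.0 and 326 FPKM against 131, 189 and 186 FPKM (1.01 ± 0.21, adjusted p = 0.00876). The groups of these 3 genes did not overlap, and the lowest polysome library was well above the highest total library. Psmb3 (1.08 ± 0.24), Psmb7 (0.94 ± 0.20) and Psmd7 of the cap (0.99 ± 0.22) were also higher. The share of summed FPKM held by the 31 genes was 1.34%, 1.53% and 1.46% in polysome and 0.766%, 0.751% and 0.804% in total RNA. Here total c0 did not stand apart, and the means of 1.44% ± 0.0961 and 0.774% ± 0.0273 (SD, n = 3 each) did not overlap (p = 0.1, exact permutation test, two-sided). In monosome RNA the share was 0.261% and 0.244%, and 19 of the 31 genes were lower than in total RNA and 1 higher (9.91% of all genes were lower), with a median of -1.0.

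**Figure D3:**
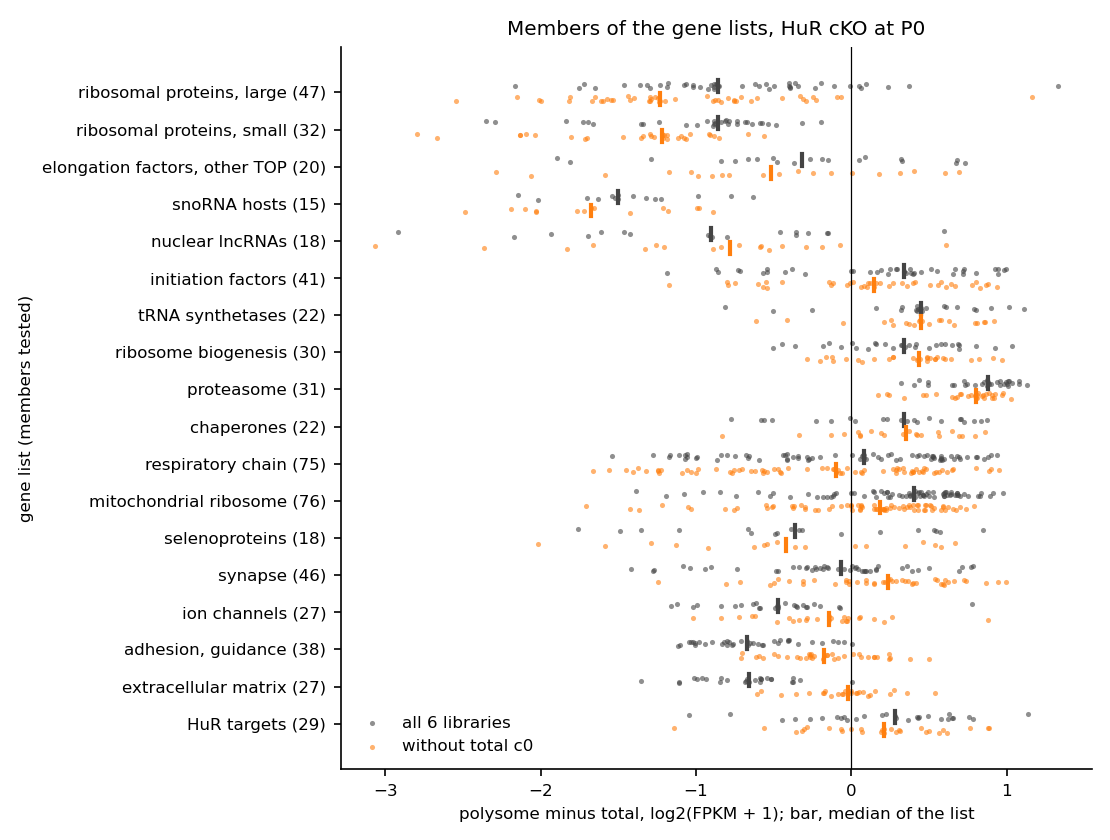
Each point is 1 gene of a list, with polysome minus total RNA on the x axis, from all 6 libraries (dark grey) and without total c0 (orange), and bars mark the medians. Ribosomal protein lists move further below 0 without total c0, the proteasome stays at 0.80 to 0.88, and adhesion and extracellular matrix lists move from -0.67 and -0.66 to -0.17 and -0.02.

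The other parts of the translation apparatus did not follow the ribosomal proteins. Of 41 initiation factor genes, 6 were higher and 3 lower, with a median of 0.34 (4 and 2, with 0.15, without total c0). Over all genes 5.15% were higher and 6.47% lower, so the lower count is near the share over all genes. Eif3g, an mRNA-binding subunit of eIF3, was at 178, 195 and 172 FPKM in polysome and 71.2, 117 and 88.7 FPKM in total RNA (1.0 ± 0.23, adjusted p = 0.0118), with no overlap. Eif2b2 (0.94 ± 0.23), the exon junction helicase Eif4a3 (0.94 ± 0.24) and Eif4h (0.81 ± 0.21) stayed called without total c0, and Eif6, which holds subunits apart, did not (0.98 ± 0.26, and 0.88 with an adjusted p of 0.0734). Eif2b2, Eif4a3 and Eif4h were each called in only 2 of the 6 fits that leave out a library (adjusted p up to 0.0683, 0.0748 and 0.0887). Eif5a2 was lower, at 2.40, 2.06 and 1.59 FPKM against 5.94, 5.09 and 6.50 FPKM (-1.19 ± 0.24, adjusted p = 0.00691), and was called without each library in turn. Of 22 genes for aminoacyl-tRNA synthetases and their partners, 4 were higher and 0 lower, with a median of 0.45 (1 and 0, again with 0.45, without total c0), led by Hars for histidine (0.90 ± 0.21, adjusted p = 0.0145, and 0.86 with 0.0305 without total c0). Of 30 ribosome biogenesis genes, only Fbl was called, the methyltransferase of snoRNA particles (1.04 ± 0.23, adjusted p = 0.0115), with a median of 0.34 over the list (0.43 without total c0, with Fbl still called). Fbl is part of the particles whose host transcripts were lower. With the replicate block these counts rose to 12, 8 and 11 higher genes, beside 15.2% of all genes. Without polysome c1 or c2, 0 genes of these lists were called higher.

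Nuclear genes of mitochondrial complexes went in both directions. Of 75 respiratory chain genes, 4 were higher and 11 lower with a median of 0.08, beside 5.15% and 6.47% of all genes. There were 1 and 15 (median -0.10) without total c0, and 16 and 18 with the replicate block, beside 15.2% and 14.1% of all genes. Without total c1, 10 were higher and 5 lower. Without polysome c0, c1 or c2, 0 were higher and 4, 5 and 1 lower. In complex IV, 4 of 10 were lower and 0 higher, with a median of -0.61, and in complex I, 6 of 36 were lower and 2 higher, with a median of 0.11. Without total c0 the counts were 5 of 10 lower (median -0.78) in complex IV and 7 lower and 1 higher (median -0.09) in complex I. Cox8a, a small subunit of complex IV, was at 112, 94.2 and 83.2 FPKM in polysome and 237, 389 and 240.0 FPKM in total RNA (-1.54 ± 0.29, adjusted p = 0.00509), without overlap, and was called without each library in turn. Ndufc1 (-1.28 ± 0.28), Ndufa3 (-1.17 ± 0.29), Ndufa1 (-1.11 ± 0.24) and Ndufv3 (-1.07 ± 0.24), accessory subunits of complex I, were lower, and stayed called without total c0. Ndufa9, another accessory subunit of the same complex, was higher at 149, 154 and 152 FPKM against 80.3, 77.6 and 78.2 FPKM (0.94 ± 0.24, adjusted p = 0.0224). Of 76 mitochondrial ribosomal protein genes, 7 were higher and 5 lower with a median of 0.40. There were 1 and 7 (median 0.18) without total c0, and 25 and 7 with the replicate block. Higher calls numbered 14 without total c1 and 1 without total c2. Without polysome c0, c1 or c2, 1, 0 and 0 were higher and 1, 2 and 0 lower. Mrps24 (-1.39 ± 0.30) and Mrpl54 (-1.19 ± 0.27) were the leading lower genes and Mrpl41 (0.98 ± 0.23, and an adjusted p of 0.0508 without total c0) and Mrpl16 (0.68 ± 0.18) the leading higher ones.

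Of 23 genes with upstream reading frames or a part in the integrated stress response, 2 were higher and 2 lower, with a median of 0.03 (1 and 1 with 0.01 without total c0). Over all genes 5.15% were higher and 6.47% lower, and 2 calls in each direction are too few to set this list apart. Atf4, the transcription factor of that response, whose upstream frames hold back its main frame in unstressed cells, was at 44.3, 53.0 and 52.5 FPKM in polysome and 70.3, 127 and 101 FPKM in total RNA (-0.95 ± 0.25, adjusted p = 0.0224). The groups did not overlap, and the difference was -1.17 without total c0 (adjusted p = 0.00617), but the call was lost without any 1 of the other libraries (adjusted p up to 0.0852). Its target Ddit3, also with an upstream frame, was at -0.92 ± 0.29 (adjusted p = 0.0448, and 0.0504 to 0.136 without each library in turn). Uchl1, a neuronal ubiquitin hydrolase, was higher at 1460.0, 1410.0 and 1160.0 FPKM against 610.0, 851 and 492 FPKM (1.07 ± 0.25, adjusted p = 0.0124). Eif2ak1, a kinase that triggers the response, was at 0.71 ± 0.21 (adjusted p = 0.0397, and 0.110 without total c0).

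Textbook HuR target mRNAs were called about as often as all genes when all libraries were used. Of 29 tested, 2 were higher and 1 lower with a median of 0.28, beside 5.15% and 6.47% of all genes, and 0 were higher and 1 lower without total c0 (median 0.21). The replicate block called 7 higher and 2 lower, beside 15.2% and 14.1%. Trp53, which encodes p53, was at 60.6, 71.2 and 73.6 FPKM in polysome and 21.2, 37.8 and 35.1 FPKM in total RNA (1.14 ± 0.30, adjusted p = 0.0247), with no overlap, and its value without total c0 was 0.89 (adjusted p = 0.0987). Xiap, an inhibitor of caspases, was at 8.49, 6.63 and 7.08 FPKM against 14.1, 13.9 and 21.8 FPKM (-1.04 ± 0.24, adjusted p = 0.0115, and -1.14 with 0.0122 without total c0). The third was Mtap (0.65 ± 0.21, adjusted p = 0.0479), which was not called without any 1 library. The vascular growth factor Vegfa, a much studied HuR target, was at -0.78 ± 0.29 (adjusted p = 0.0795), and Ccnd1, the G1 cyclin, at 0.62 ± 0.20 (adjusted p = 0.0518).

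Of 36 splicing regulator genes, 7 were higher and 1 lower with a median of 0.39, but without total c0 the counts were 3 and 0 with a median of 0.29, and without any 1 polysome library 0 were higher. The replicate block called 12 higher and 2 lower. For these and the next lists, 5.15% of all genes were higher and 6.47% lower, and 15.2% and 14.1% with the block. Srsf7 (0.74 ± 0.20) and Snrnp70 of the U1 particle (0.85 ± 0.26) stayed called without total c0 (adjusted p = 0.0297 and 0.0228), where Hnrnpa2b1, an RNA-binding protein of the same list, passed as well (1.11, adjusted p = 0.0315). Srsf3 was at 299, 295 and 234 FPKM in polysome and 142, 163 and 167 FPKM in total RNA (0.80 ± 0.22, adjusted p = 0.0262), with no overlap and an adjusted p of 0.0584 without total c0. Of 45 other RNA-binding protein genes, 0 were higher and 1 lower with a median of -0.07 (also 0 and 1, with -0.11, without total c0, and 4 and 6 with the replicate block). The lower gene was Ybx1, a protein that packages mRNA, at 310.0, 291 and 218 FPKM against 461, 937 and 768 FPKM (-1.36 ± 0.31, adjusted p = 0.0121, and -1.65 with 0.00285 without total c0). In the cell cycle list, Pcna, the sliding clamp of DNA replication, was higher (0.90 ± 0.21, adjusted p = 0.0147, and 0.79 with 0.0342 without total c0) and Mki67, a marker of dividing cells, lower (-1.21 ± 0.38, adjusted p = 0.0461, and 0.181 without total c0), out of 35. Over this list the replicate block called 10 higher and 2 lower. Of 22 chaperone genes, 0 were called with a median of 0.34, and 6 were higher with the replicate block. The chaperonin subunit Cct6a came closest to the threshold (0.83 ± 0.27, adjusted p = 0.054).

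Lists of neuronal and surface proteins shifted with the choice of total libraries. Adhesion and guidance genes had a median of -0.67 over 38 genes with all libraries, 37 of them below 0, but a median of -0.17 without total c0, and the lower calls numbered 2 with all libraries, 0 of 37 without total c0, 16 without total c1 and 18 with the replicate block. Extracellular matrix genes went from a median of -0.66 (1 of 27 lower) to -0.02 (0 of 26 lower) without total c0, and ion channels from -0.47 (4 of 27 lower) to -0.14 (1 of 26 lower). Synapse genes changed sign, from -0.07 (1 of 46 higher and 4 lower) to 0.24 (1 and 2 of 45), and neurite cytoskeleton genes had medians of 0.03 and 0.21 over 36. With the replicate block, 3 of 25 extracellular matrix, 7 of 27 ion channel, 7 of 46 synapse and 5 of 36 neurite genes were lower, and 0, 1, 4 and 3 higher. The block called 14.1% of all genes lower and 15.2% higher. Of these lower counts, all but that of the ion channels were near that share. With all libraries and no block, 6.47% of all genes were lower and 5.15% higher. The total libraries differed among themselves in these genes: extracellular matrix mRNAs summed to 718.7 FPKM in total c0, 166 in total c1 and 191.3 in total c2, beside 159.9 to 211.7 FPKM in polysome RNA. Named members of these lists also depended on single libraries. Mtap1b, the axonal microtubule protein Map1b, was at 36.6, 47.7 and 39.9 FPKM in polysome and 258, 73.9 and 126 FPKM in total RNA (-1.68 ± 0.37, and -1.21 with an adjusted p of 0.0386 without total c0), and its call was lost without polysome c2 (adjusted p = 0.0526). Stx1a of the vesicle fusion machinery was higher, at 115, 116 and 96.6 FPKM against 81.0, 65.0 and 48.2 FPKM (0.77 ± 0.21, and 0.95 with an adjusted p of 0.0117 without total c0), but was called in 2 of the 6 fits that leave out a library (adjusted p up to 0.119). Neither gene had an overlap between the groups.

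Coding length moved with this difference. Genes with a coding length in GENCODE M21 (11819, or 96.1% of those tested) were divided by it into 10 bins. The shortest bin, of 111 to 534 nucleotides, had a median of -0.31, with 199 of 1188 genes lower and 25 higher. The longest, of 3441 to 23151 nucleotides, had a median of -0.21, with 45 of 1180 lower and 6 higher. Over all genes 6.47% were lower and 5.15% higher. Lower calls were thus above that share in the shortest bin only, and both kinds of call were below it in the longest. Medians were highest in the third bin, at 0.15. Against total c0 alone the polysome mean was at 0.05 in the shortest and -0.56 in the longest bin, against total c1 at -0.58 and 0.15, and against total c2 at -0.31 and -0.16. Without total c0 the medians were -0.46 and -0.00, with 287 and 9 genes lower and 2 higher in each, beside 6.34% and 1.46% of all genes. The low values of the shortest bin did not come from ribosomal protein genes alone, since the other 1138 genes had a median of -0.28. Lists differ in this respect: the median coding length was 471 and 453 nucleotides for ribosomal proteins of the large and small subunit, 963 for the proteasome, 2976 for adhesion and 5007 for the extracellular matrix. What part length plays in the lists' values was not tested.

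**Figure D4:**
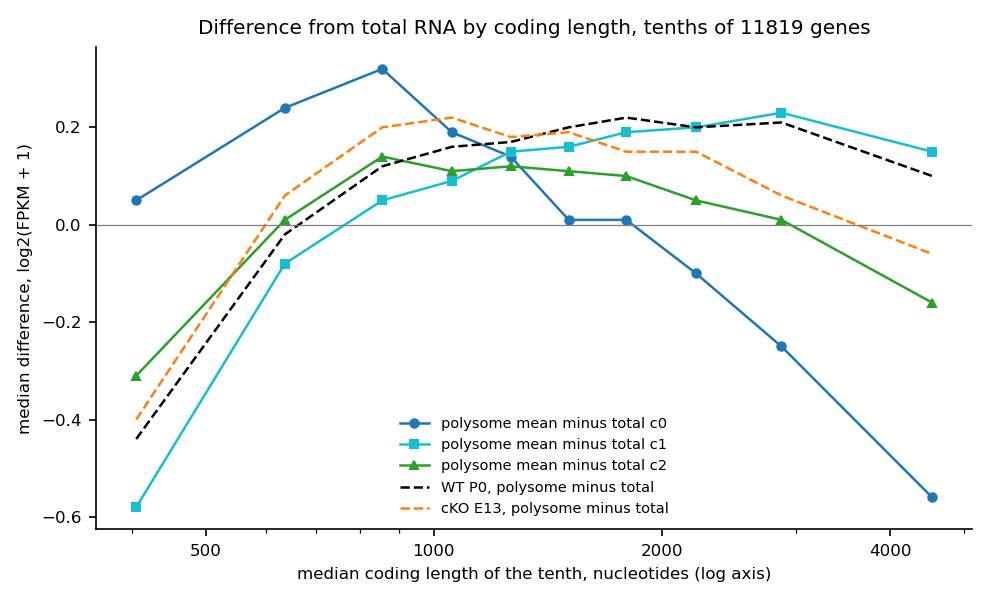
Median difference from total RNA in 10 bins of coding length (x axis, log scale, nucleotides), for the polysome mean against each total library (solid lines) and for the WT and E13 comparisons (dashed lines). Against total c0 the line falls from 0.32 in the third bin to -0.56 in the longest, while against total c1 it lies between 0.05 and 0.23 from the third bin on.

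Few markers of cell types were called in this comparison, in which 5.15% of all genes were higher and 6.47% lower. Of 20 radial glia, 11 intermediate progenitor, 16 deep-layer and 14 upper-layer neuron genes, 1 was called, Sox2 of radial glia (0.61 ± 0.19, adjusted p = 0.0493, and not called without any 1 library), and their medians lay between -0.19 and 0.06 (-0.03 to 0.10 without total c0). Of markers for cells that a cortex sample can also hold, 0 of 14 endothelial, 0 of 13 red blood cell, 1 of 13 microglial, 1 of 15 choroid plexus and meninges and 1 of 17 interneuron genes were called. Single calls in lists of this size are near the shares over all genes and do not set these lists apart. The endothelial list had a median of -0.40 with 12 of 14 genes below 0, the choroid plexus and meninges list -0.54 with 13 of 15, and the microglial list -0.15 with 9 of 13. Without total c0 these medians were 0.08, -0.09 and 0.24. Red blood cell, interneuron and astrocyte and oligodendrocyte precursor genes had medians of 0.02, 0.10 and 0.18 (-0.13, 0.10 and 0.25 without total c0). Those called were Tyrobp (-1.33 ± 0.40) of microglia, Igf2 (-1.46 ± 0.24) of the choroid plexus and meninges and Calb2 (0.98 ± 0.26) of interneurons, of which Igf2 alone stayed called without total c0. Igf2, a growth factor gene, was called without each library in turn, at 27.7, 22.6 and 19.6 FPKM in polysome and 85.2, 62.0 and 52.7 FPKM in total RNA. The summed endothelial markers were at 177.5 FPKM in total c0 and at 60.73 to 86.27 FPKM in the other 5 libraries, and Ttr of the choroid plexus was at 12.4 FPKM in polysome c0 and at 249 to 427 FPKM in the others. Fewer cells of a type and less RNA per cell cannot be told apart in such tissue libraries, and the part of these differences in the results was not tested.

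The same comparison in WT neocortex at P0 and in cKO neocortex at E13, which share no library with it, gave similar values for the genes called here. Of the 633 higher genes, 632 were above 0 in WT and 228 were called higher there, with a median of 0.61 beside 0.84 in the cKO. Of 794 lower genes tested in WT, 787 were below 0 and 626 were called lower, with a median of -1.08 beside -1.05. At E13, 629 of the 633 and 727 of the 796 kept the sign, 160 and 370 were called in that direction, and 0 were called in the other direction in either comparison. The E13 calls used a spread estimated from all 16 cKO libraries, those at P0 included, and are thus not independent of the calls here. WT at P0 had 812 genes higher (6.7%) and 1184 lower (9.77%), or 16.5% of 12123, and the cKO at E13 had 334 higher (2.72%) and 634 lower (5.15%), or 7.87% of 12302. Across 12001 genes, Pearson's r between the cKO and WT differences was 0.79, and 0.88 without total c0, and across 12302 genes it was 0.65 with E13, and 0.72 without total c0. These are descriptions across genes, which are not independent replicates.

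The gene lists can be set side by side in the 3 comparisons. Ribosomal protein genes were lower for 33 of 47 and 30 of 32 members in WT, with medians of -1.38 and -1.41, and for 8 and 7 members in cKO at E13, with -0.62 and -0.75. Proteasome genes were higher for 19 of 31 in WT (median 0.76) and 10 of 31 at E13 (0.77), and snoRNA hosts were lower for 13 and 10 of 15 (-1.77 and -1.54). Fth1 was at -2.90 ± 0.29 in WT and -1.90 ± 0.36 in cKO at E13, and Ftl1 at -2.85 ± 0.30 and -2.32 ± 0.40. The P0 cKO values of the ribosomal protein lists lay between those of WT and E13, and closer to WT without total c0. Adhesion genes had medians of -0.67 in cKO and 0.14 in WT at P0 and -0.09 in cKO at E13, and -0.17 in cKO at P0 without total c0.

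**Figure D5:**
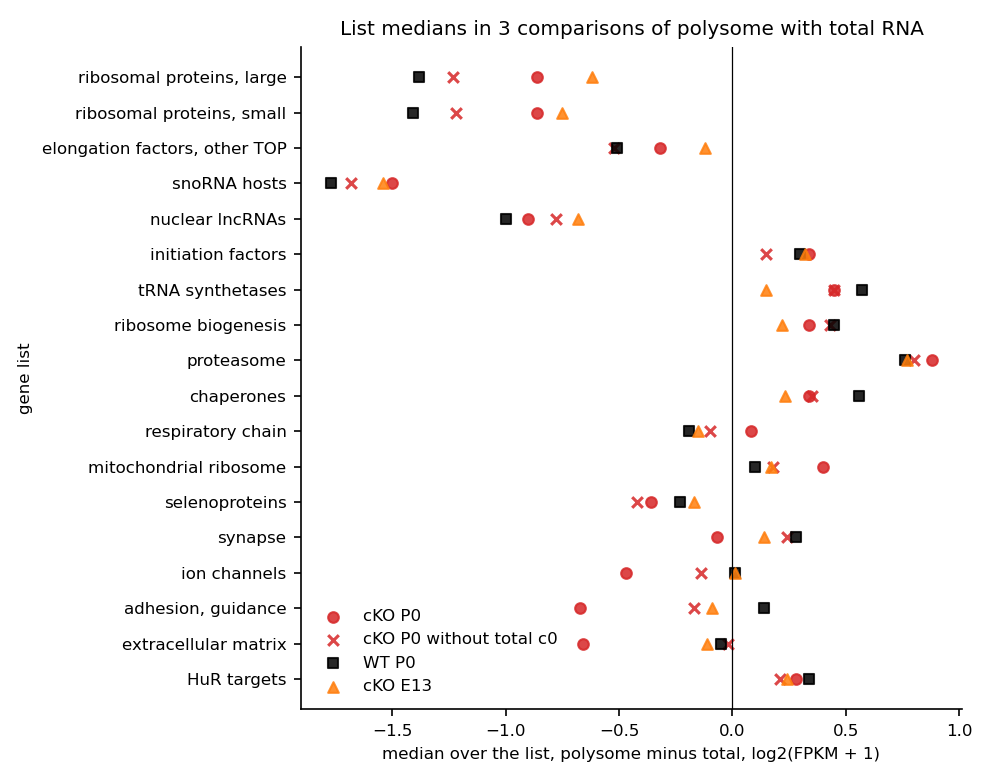
Median polysome minus total RNA (x axis) of each gene list in cKO at P0 (red circles), the same without total c0 (red crosses), WT at P0 (black squares) and cKO at E13 (orange triangles). Ribosomal protein and snoRNA host lists lie below -0.6 and the proteasome above 0.7 in each of them, and the adhesion and matrix lists lie near 0 except in cKO at P0 with all libraries.

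A direct test of the genotype difference, the cKO difference minus the WT difference at P0, called 0 of 12233 genes in limma, with 140 (1.14%) at an unadjusted p under 0.05 and a smallest adjusted p of 1.0. The age difference in the cKO, P0 minus E13, likewise called 0 of 12302, with 684 (5.56%) at an unadjusted p under 0.05 and a smallest adjusted p of 0.583. The median SE was 0.35 for the genotype and 0.39 for the age difference on the log2 scale. Rps12 stood at -2.35 in cKO and -3.34 in WT, a difference of 0.99 ± 0.55 (adjusted p = 1.0), which was 0.55 without total c0. For the ribosomal protein lists the medians of the genotype difference were 0.52 and 0.62, with 2 members each at an unadjusted p under 0.05, and for the proteasome it was 0.14 with 0 members. Without total c0 these medians were 0.16, 0.20 and 0.00. Adhesion genes had a median genotype difference of -0.76 with 1 of 38 at an unadjusted p under 0.05, and of -0.27 without total c0. With these libraries no gene's level in polysome relative to total RNA was therefore shown to differ between those labelled HuR cKO and WT at birth. That is not evidence that none does.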

How the data were processed

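Poly(A) RNA was sequenced over 100 bases from both ends, after TruSeq preparation, per the labels' protocols; that kit does not keep the strand, so genes that overlap on opposite strands cannot be told apart. Among the tools in the submitters' processing notes are Cuffdiff, TopHat2 2.0.6 and Bowtie2 2.0.5.0, on mm10 and GRCm38. Which annotation they used is not given in the sources used. The authors deposited FPKM per gene and library in a table for each genotype, with 23284 genes in the cKO table. Dates or bare numbers stood in place of the names of 26, which were dropped. The libraries of each group and the columns of the cKO table were matched by genotype, age and fraction only, since columns are numbered from 0 and titles from 1.

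The test was limma's (version 3.58.1, R 4.3.3), on log2(FPKM + 1) (moderated test with an intensity trend, two-sided, genes with a mean of at least 1 FPKM, Benjamini-Hochberg over all genes tested). All 16 libraries of the cKO table were fitted in 6 groups with 10 residual degrees of freedom. The WT table had 9, and a joint fit of all 31 libraries, used only for the genotype difference of effects taken within a table, had 19. The script was tested on simulated data. Shares of summed FPKM were compared by an exact permutation test. Alternatives were the pseudocount, the filter, median ratio rescaling, the libraries fitted, a replicate block and leaving out each library. Equal column numbers were checked by correlating the deviations of polysome and total libraries from their group means across genes. The 3 pairs with equal numbers correlated at 0.266, 0.3697 and 0.1004, each above 0.1, so counts with the block are given for the whole comparison and for lists whose counts it moved by over 1.5 times and that the text describes in detail. Pairs with unequal numbers correlated at -0.3146 to 0.0327. The pairing rests on these values and not on the labels. The male-specific Eif2s3y and Ddx3y were at 0.0481 and 0 FPKM in polysome c0 and at 28.9 and 15.8 FPKM in total c0. These 2 libraries thus do not look like parts of 1 lysate, and the block treats them as a pair. Counts with the block are therefore an alternative setting and no separate support.

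The members and gene lists (37 lists with measured genes) were chosen with earlier results of these data known. The text names Elavl1, the largest called differences that showed no overlap between libraries in genes averaging 5 FPKM or more in a group (12 per direction, clone names left out), and up to 6 members of a list in order of adjusted p; Snrnp70, Hnrnpa2b1, Vegfa and Ndufa9 fall outside this rule and were chosen after their values were seen. Some results are not reported here. Positions are from GENCODE M21 and promoter windows from RefSeq.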

Additional observations from a re-analysis of the deposited data

How the results depend on the processing

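The count of higher genes in polysome RNA, 633, was 1211 when only the compared libraries were fitted and 1820 with the replicate block. Leaving out each library in turn gave 41 to 728. The count of lower genes, 796, was 1688 with the replicate block, and 187 to 823 with each library left out. The column numbers behind this block are supported by the correlations alone, and the male-specific mRNAs of polysome c0 and total c0 go against them. Other pseudocounts, filters and median ratio rescaling kept both counts within 1.5 times. The age difference had 1 gene called with no filter on low values and 0 otherwise, and the genotype difference had 0 in all settings. Of 1577 recomputed values for 122 genes, 1197 kept their call and 380 lost it, 312 of them with a library left out, and 0 changed sign. Only 29 of the 122 genes kept the call without each library in turn. The cause of these changes was not tested. The depth in fragments is unknown, and 3 libraries per group limit each test.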
